A study of Mus musculus with 8 samples.

Results

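The 8 genes followed here across clones and passages mark, activate or restrain the 2-cell-like state of mouse embryonic stem (ES) cells. They are *Zscan4c*, *Zscan4d* and *Zscan4f* of the *Zscan4* family, *Tcstv1* and *Tcstv3*, the activators *Dppa2* and *Dppa4*, and the repressor *Rif1*. The 8 genes were taken by symbol from a table of 23337 names, and all 8 were present and passed the filter on low values, a mean of at least 10 normalized counts, which 14791 names passed. PolyA+ RNA was sequenced from 4 independent ES cell lines, numbered as clones 6, 20, 30 and 36, at passage 6 and again at passage 16, giving 8 libraries and n = 4 clones per passage. All were wild-type cells of strain 129S1 by their labels, derived from blastocysts with GFP expressed from the Rosa26 locus and grown in DMEM with LIF. The methods also name C57BL6 for cultured ES cell clones without saying which cells were sequenced. Each line is 1 clone, sequenced in 1 library per passage, so the spread between libraries holds both clonal and technical differences.

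ES cell cultures contain a small, changing fraction of cells that transiently express genes of the 2-cell embryo. ZSCAN4 proteins are DNA-binding zinc finger proteins that are switched on in such cells and are known for telomere lengthening through recombination, and *Tcstv1* and *Tcstv3* were described with the same role. DPPA2 and DPPA4 form a heterodimer that binds chromatin and activates *Dux* and other 2-cell genes, whereas RIF1, a telomere- and replication-associated protein, is known as a repressor of *Zscan4*. In libraries from whole cultures, fewer *Zscan4*-positive cells and less *Zscan4* RNA per cell cannot be told apart.

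The *Zscan4* genes lie in 1 cluster on mouse chromosome 7 (GRCm38, GENCODE annotation). *Zscan4c* is at chr7:11005745-11010547 on the plus strand, *Zscan4d* at chr7:11161374-11166159 on the minus strand and *Zscan4f* at chr7:11397915-11402318 on the plus strand, each with 4 exons. *Tcstv1* is at chr13:119893388-119894785 (minus strand) and *Tcstv3* at chr13:120316878-120318178 (plus strand). *Dppa4*, at chr16:48283733-48294237, and *Dppa2*, at chr16:48303908-48319723, are neighbours on the plus strand, and *Rif1* spans chr2:52072832-52122383 on the plus strand with 36 exons.

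The paralogs are close to identical, which bears on how their 50-base reads were assigned. The coding sequences of *Zscan4c* and *Zscan4f* differed at 6 of 1518 positions (99.6% identity), and *Zscan4d* differed from either at 35 positions (97.7%). Of 1371 coding windows of 50 bases compared without a gap and within 1 exon, 497 (36.3%) were the same in the 3 genes. The first such window, from the start codon of *Zscan4c* at chr7:11006556-11006605, shows a read that cannot be assigned to 1 of the 3 genes. The coding windows with the most differences, from GENCODE transcripts of GRCm38, are given after it with the bases that differ among the 3 genes in capitals. They lie at chr7:11009517-11009566 (plus), chr7:11162351-11162400 (minus) and chr7:11401710-11401759 (plus).
Zscan4c, d and f: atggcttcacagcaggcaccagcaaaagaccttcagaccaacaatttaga
Zscan4c: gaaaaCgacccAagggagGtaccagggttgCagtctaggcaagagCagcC
Zscan4d: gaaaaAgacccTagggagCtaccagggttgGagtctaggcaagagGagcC
Zscan4f: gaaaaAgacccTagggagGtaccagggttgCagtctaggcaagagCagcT

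*Tcstv1* and *Tcstv3* are further apart, with 28 differences over 507 coding positions (94.5% identity). Their most different coding windows, at chr13:119893638-119893687 (minus) and chr13:120317974-120318023 (plus), are shown with the differing bases in capitals.
Tcstv1: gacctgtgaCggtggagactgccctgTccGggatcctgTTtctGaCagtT
Tcstv3: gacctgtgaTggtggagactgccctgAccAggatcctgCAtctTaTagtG

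The 3 *Zscan4* genes also share their promoters. The 250 bases before the RefSeq start of each gene (GRCm38.p6) are given for comparison. The counts of the 3 genes varied together across libraries, but the genes share reads, and any part of the promoters in this was not tested. They lie at chr7:11005495-11005744 (plus), chr7:11166149-11166398 (minus) and chr7:11397665-11397914 (plus), and capitals mark the aligned positions at which the 3 differ. *Zscan4c* and *Zscan4f* differed at 1 of 227 aligned bases and *Zscan4c* and *Zscan4d* at 7 of 239. The annotated starts are offset against each other along the shared sequence.
Zscan4c: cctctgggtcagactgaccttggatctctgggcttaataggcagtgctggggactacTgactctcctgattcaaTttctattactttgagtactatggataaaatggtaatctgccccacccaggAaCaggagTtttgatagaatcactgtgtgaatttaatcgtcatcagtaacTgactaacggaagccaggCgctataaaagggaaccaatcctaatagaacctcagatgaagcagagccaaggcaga
Zscan4d: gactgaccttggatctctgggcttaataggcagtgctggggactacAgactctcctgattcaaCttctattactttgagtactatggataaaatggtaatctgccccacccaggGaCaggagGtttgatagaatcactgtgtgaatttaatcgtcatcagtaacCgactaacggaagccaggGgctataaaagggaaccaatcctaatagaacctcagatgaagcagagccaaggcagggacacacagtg
Zscan4f: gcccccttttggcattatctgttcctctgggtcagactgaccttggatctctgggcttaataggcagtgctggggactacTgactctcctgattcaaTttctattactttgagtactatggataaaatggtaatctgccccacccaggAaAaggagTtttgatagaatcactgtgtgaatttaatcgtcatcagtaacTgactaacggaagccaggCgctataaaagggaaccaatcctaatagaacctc
The letters TATAAA, the core of a TATA box, start 54, 65 and 31 bases before the annotated starts of *Zscan4c*, *Zscan4d* and *Zscan4f*, in the same stretch of the shared sequence. On either strand, these 6 letters stand in the 250 bases before the start in 12.97% of 27025 annotated promoters, and in the last 50 bases of the sense strand in 2.88%. RefSeq promoter sequences matched 3 of the 8 genes.

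The depth and the rows of the table were examined first. Recovered totals lay between 21394069 and 34295561 reads per library. In part of the table counts are displaced among names of which 1 is another's name plus a further digit, in groups that hold 5080 names (21.8%). None of the 8 genes lies in such a group. Lines next to them are ordered by their names alone, whatever their counts, so line order could not test the register of these rows further. Of 9 testable ES cell markers outside those groups, *Pou5f1* and *Dppa5a* had the highest levels, with means over 8 libraries of 25674 and 24889.5 normalized counts, and none of the 9 passed in limma or edgeR between passages (3 had an unadjusted p under 0.05, and 4 in limma with the clone as a block) or clones (1 had). Fibroblast markers, which feeder cells would carry, summed to between 3746 and 5781 normalized counts at passage 6 and between 4388 and 5810 at passage 16. The collagen genes *Col1a2* and *Col1a1* had means over 8 libraries of 2614 and 1667. The other listed markers were lower, with means of 360 for *Col3a1*, 148 for *Postn*, 49.3 for *Thy1* and 35.1 for *Dcn*, while *Lum* had at most 7.74. Which cells the collagen transcripts came from was not tested. Primitive endoderm markers summed to between 2311 and 7549 at passage 6 and between 1728 and 6258 at passage 16, with clone 30 the lowest at each passage. Trophoblast markers summed to between 313 and 430 at passage 6 and between 310.5 and 497 at passage 16, with *Elf5* at no more than 17.2 normalized counts in any library. Primed epiblast markers summed to between 1765 and 3429 at passage 6 and between 1950 and 2576 at passage 16. No tested marker of these 4 lists passed between passages or clones in limma or edgeR. Between passages, 0 had an unadjusted p under 0.05 without the clone as a block, and 1, *Pou3f1*, had in limma with it (adjusted p = 0.726, limma). In the limma F test among clones, 2 of 6 fibroblast, 2 of 5 primitive endoderm, 1 of 3 trophoblast and 1 of 3 primed epiblast markers had an unadjusted p under 0.05, against 10.7% of all names. The part of these markers in the results below was not tested.

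The *Zscan4* transcripts varied mainly among clones at passage 6. *Zscan4c* had 223, 490, 828 and 302 normalized counts in the passage 6 libraries of clones 6, 20, 30 and 36, against 288, 391, 397 and 368 in their passage 16 libraries. *Zscan4d* began at 178, 475, 860 and 296 in the same order of clones, and its passage 16 values were 341, 337, 410 and 288. *Zscan4f* began at 191, 404, 649 and 281, and later had 260, 347, 299 and 294. For each gene the passage 6 library of clone 30 was the highest of the 8 and that of clone 6 the lowest, and the passage 16 values lay inside the range of the passage 6 values, so the groups overlapped, as they did for all 8 genes (2.37% of names had groups that did not overlap). At passage 6 the highest clone had 3.71, 4.84 and 3.39 times the level of the lowest for *Zscan4c*, *Zscan4d* and *Zscan4f*. At passage 16 the same ratio was 1.38, 1.42 and 1.34. Without clone 30 the passage 6 ratio was 2.20, 2.67 and 2.11, still above the passage 16 ratio. Among 12283 tested names outside the displaced groups, the log2 range over clones at passage 16 was a median of 0.982 of that at passage 6, against 0.245, 0.224 and 0.238 for the 3 *Zscan4* genes. Smaller ratios than these were seen for 2.35%, 1.85% and 2.14% of the names, which is given as a description, and the 3 genes share reads.

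**Figure D1:**
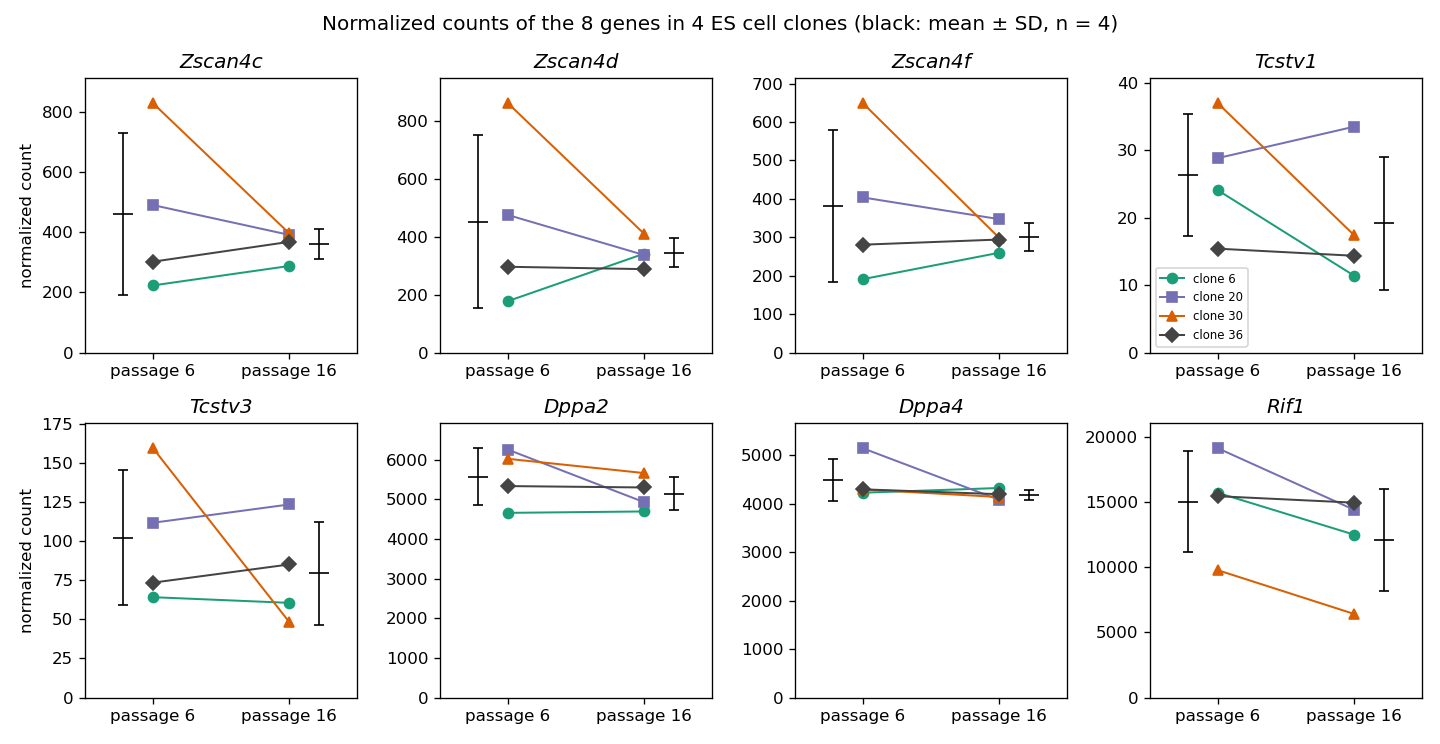
Normalized counts (linear axis from 0) of the 8 genes at passage 6 and passage 16, with lines joining the libraries of each clone and black bars giving the mean ± SD of 4 clones. *Zscan4c*, *Zscan4d* and *Zscan4f* ranged widely at passage 6, with clone 30 highest and clone 6 lowest, and lay between 260 and 410 at passage 16.

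Between passages, *Zscan4c* went from 461 ± 269 (SD, n = 4) to 361 ± 50.3 normalized counts (SD, n = 4), a log2 difference of -0.18 with a standard error of 0.377 (adjusted p = 0.960, limma with Benjamini-Hochberg adjustment over 14791 names). The log2 difference was -0.17 (standard error 0.435, adjusted p = 0.967, limma) for *Zscan4d* and -0.21 (standard error 0.341, adjusted p = 0.955, limma) for *Zscan4f*. None of the 8 genes passed the test between passages, in which 0.00676% of all names did, and none had an unadjusted p under 0.05, as 3.5% of all names had. Clones moved in opposite directions. In clone 30, *Zscan4c* at passage 16 was 0.479 times its passage 6 level, *Zscan4d* 0.477 times and *Zscan4f* 0.461 times. In clone 6 the 3 ratios were 1.29, 1.92 and 1.36, in clone 20 0.798, 0.709 and 0.860, and in clone 36 1.22, 0.972 and 1.05. Clones 30 and 6 were the highest and lowest at passage 6. With 1 library per clone and passage, a change in them cannot be told apart from a return toward the mean. Without the passage 6 library of clone 30 the differences turned positive, at 0.16, 0.22 and 0.10 on the log2 scale, and did not pass either. The differences are on the log2(normalized count + 1) scale, on which changes of low counts appear smaller than they are.

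**Figure D2:**
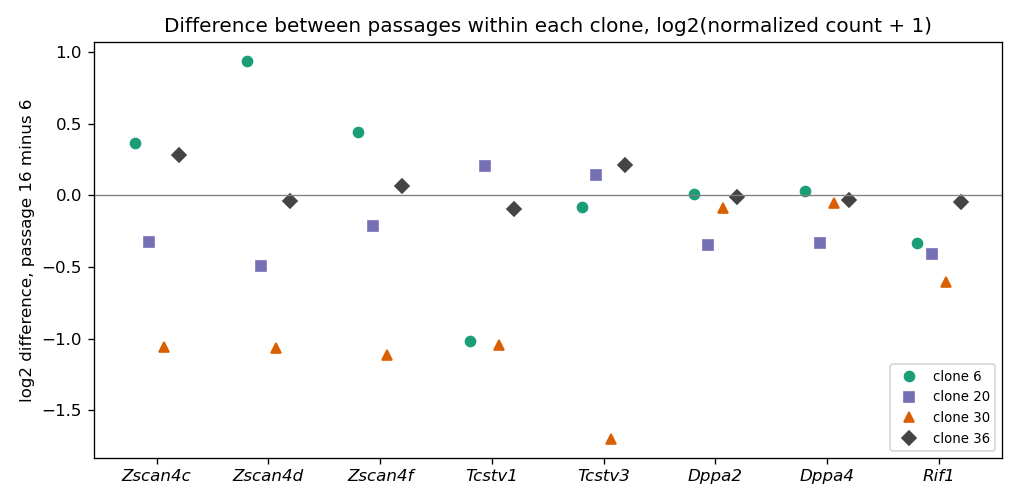
Difference between passage 16 and passage 6 within each clone on the log2(normalized count + 1) scale, 1 point per clone and gene, with the line at 0 marking no difference. The 3 *Zscan4* genes and both *Tcstv* genes were over 1 lower on this scale in clone 30, and *Rif1* is the 1 gene with all 4 points under 0.

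The 3 *Zscan4* transcripts were also summed, which takes out how reads were divided among these 3 genes but not reads shared with other family members and pseudogenes. The sum was 592, 1369, 2338 and 879 normalized counts in clones 6, 20, 30 and 36 at passage 6, and 889, 1075, 1106 and 949.9 later. At passage 6 the sum in clone 30 was 3.95 times that in clone 6, and at passage 16 it was 1.24 times. For the sum of *Zscan4a* to *Zscan4f* these ratios were 3.80 and 1.24. The share of each paralog moved much less than the sum. *Zscan4c* took between 32.4% and 38.7% of the summed reads, *Zscan4d* between 30.02% and 38.4% and *Zscan4f* between 27.0% and 32.3%, from 443 to 2847 reads per library. In the library with the fewest reads, clone 6 at passage 6, the share of *Zscan4d* was 30.02% with a 95% Wilson interval of 25.9% to 34.4%, which covers counting error only. In clone 6 at passage 16 the share was 38.4%, with an interval of 35.5% to 41.4% that does not overlap it.

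The counts of the single paralogs did not follow their unique sequence. Of the 50-base windows of the longest annotated transcript, 322 of 2227 (14.5%) occurred in no other gene for *Zscan4c*, 1121 of 2223 (50.4%) for *Zscan4d* and 83 of 1780 (4.66%) for *Zscan4f*, over 141767 annotated transcripts searched. *Zscan4f* shared 84.7% of its windows with the pseudogene *Zscan4-ps2* and 81.7% with *Zscan4c*. With 13.5 times as many unique windows as *Zscan4f*, *Zscan4d* had only 1.17 times its mean normalized count. How reads that fit several places were counted is not stated in the methods, which allow up to 5 places, so the level of each single *Zscan4* gene is uncertain. For *Tcstv1*, *Tcstv3*, *Dppa2* and *Dppa4* the unique share was 83.2%, 68.6%, 70.9% and 64.1%, and for *Rif1* it was 100%. Windows were matched to annotated transcripts and not to the rest of the genome.

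**Figure D3:**
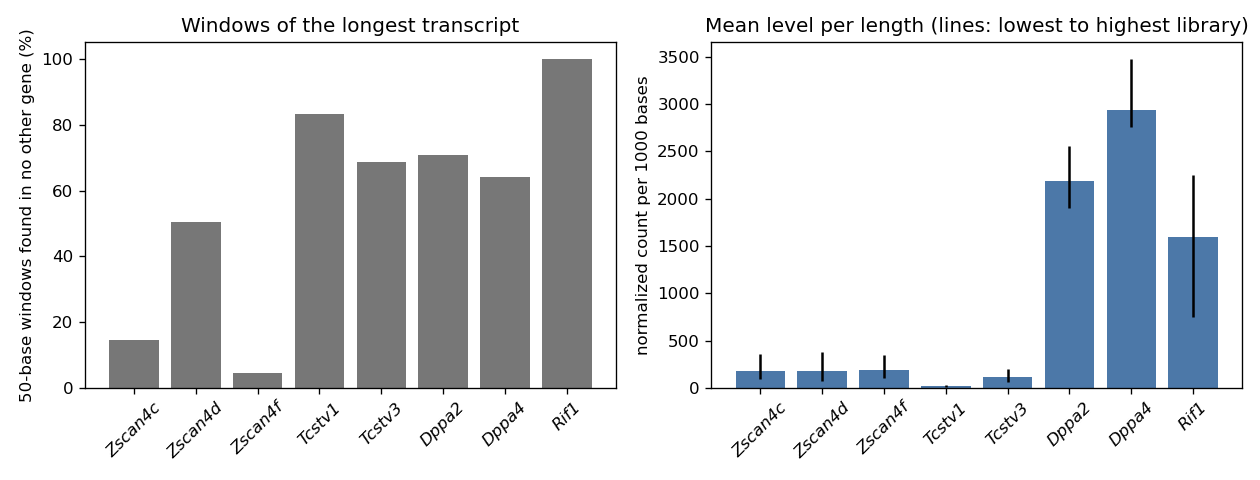
Left, percentage of 50-base windows of each gene's longest annotated transcript that occur in no other annotated gene. Right, mean normalized count per 1000 transcript bases over 8 libraries, with lines from the lowest to the highest library. *Zscan4f* had 4.66% unique windows but a level per length like those of *Zscan4c* and *Zscan4d*, and *Dppa4* had the highest level per length.

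Levels between genes were compared per 1000 bases of transcript. *Dppa4* had a mean of 2934 normalized counts per 1000 bases, *Dppa2* 2191 and *Rif1* 1594. The ranges over libraries did not meet between *Dppa4*, at 2761 to 3479, and *Dppa2*, at 1905 to 2557, but those of *Dppa2* and *Rif1*, at 755 to 2251, overlapped. The 3 *Zscan4* genes followed at 186, 181 and 175 for *Zscan4f*, *Zscan4c* and *Zscan4d* with overlapping ranges. Set against unique windows in place of length, the order changed, with *Zscan4f* at 4102 normalized counts per 1000 unique windows, *Zscan4c* at 1276 and *Zscan4d* at 355, against 4738 for *Dppa4*, 3151 for *Dppa2* and 1603 for *Rif1*. The order of the *Zscan4* genes among themselves and against the regulators therefore depends on this choice. *Tcstv3* had 116 and *Tcstv1*, the lowest, 17.8, and the range of *Tcstv3* overlapped those of the *Zscan4* genes.

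*Tcstv1* and *Tcstv3* were low and partly followed the *Zscan4* genes. *Tcstv1* had 24.1, 28.8, 36.9 and 15.4 normalized counts in the early libraries of clones 6, 20, 30 and 36, against 11.4, 33.5, 17.4 and 14.3 in the late ones, from 13 to 45 reads per library. The exact 95% Poisson interval for counting error ran from 27.0 to 49.4 in clone 30 at passage 6 and from 10.3 to 27.5 at passage 16. These overlap only between 27.0 and 27.5, which does not show that the levels were alike. For *Tcstv3* the intervals in the same libraries, 138 to 183 and 35.9 to 63.8, did not overlap. *Tcstv3* began at 64.1, 112, 159 and 73.4 and later had 60.5, 123, 48.4 and 85.1. Clone 30 was the highest for both genes at passage 6, and for *Tcstv3* it was the lowest at passage 16, at 0.304 of its passage 6 level. Clone 20 was high at both passages for both genes. The log2 difference between passages was -0.49 (standard error 0.389, adjusted p = 0.947, limma) for *Tcstv1* and -0.36 (standard error 0.376, adjusted p = 0.947, limma) for *Tcstv3*, with 3 and 2 of 4 clones lower.

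Of the 8 genes, the activators varied least. *Dppa2* had 4662, 6257, 6026 and 5338 normalized counts in the early libraries of clones 6, 20, 30 and 36, against 4698, 4932, 5667 and 5303 in the late ones. *Dppa4* began at 4229, 5145, 4297 and 4298 and later had 4326, 4084, 4139.8 and 4198. The highest of the 8 libraries exceeded the lowest 1.34-fold for *Dppa2* and 1.26-fold for *Dppa4*, against 3.71-fold for *Zscan4c*. Clone 6 was lowest for *Dppa2* at both passages, and the passage 6 library of clone 20 stood above the rest for *Dppa4*. Between passages the log2 difference was -0.11 (standard error 0.103, adjusted p = 0.947, limma) for *Dppa2* and -0.10 (standard error 0.0687, adjusted p = 0.947, limma) for *Dppa4*, each lower in 3 of 4 clones. The ratio of *Dppa2* to *Dppa4* normalized counts lay between 1.09 and 1.40 and was highest in clone 30 at each passage.

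*Rif1* stood lower in clone 30 than in the other clones. It had 15733, 19156, 9785 and 15475 normalized counts in the early libraries of clones 6, 20, 30 and 36, against 12523, 14436, 6428 and 14980 in the late ones. Both libraries of clone 30 were below the other 6, a pattern that 10.4% of the names outside the displaced groups share. With the passage as a covariate, the largest difference between clone means was 1.07 on the log2 scale (unadjusted p = 0.00207, adjusted p = 0.255, limma F test). That did not pass, and none of the 8 genes passed this test, in which 0.135% of all names did, but *Rif1* alone of the 8 was under 0.05 before adjustment, as 10.7% of all names were. Adjusted p for the other 7 genes lay between 0.502 and 0.794 (limma F test). The call for *Rif1* depended on the tool. DESeq2's likelihood ratio test on recovered reads gave an adjusted p of 5.82e-10 and called 8.22% of all names, and edgeR's quasi-likelihood test gave 0.297. Without both libraries of clone 30 the largest difference among the other clones was 0.24 (adjusted p = 0.921, limma F test).

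At passage 16 *Rif1* was lower in 4 of 4 clones, as were 9.14% of names, at 0.796, 0.754, 0.657 and 0.968 times the passage 6 level in clones 6, 20, 30 and 36. Its mean went from 15037 ± 3883 (SD, n = 4) to 12092 ± 3920 (SD, n = 4), a log2 difference of -0.35 (standard error 0.307, adjusted p = 0.947, limma). With the clone as a block its unadjusted p was 0.0159 (limma), and 5.98% of names were under 0.05, while the adjusted p was 0.726 (limma) and 0.0917 (DESeq2). Base composition differences were seen in clone 30 and in other libraries. The 515 names with transcripts under 40% GC had a median deviation from the mean over libraries of -0.12 in clone 30 at passage 6 and -0.19 at passage 16, on the log2 scale. In the other libraries this median ran from -0.03 in clone 6 at passage 16 to 0.11 in clone 6 at passage 6. *Rif1*, at 39.3% GC, deviated by -0.41 and -1.01 in the clone 30 libraries at passage 6 and 16. The fitted GC trend at its GC content was -0.10 and -0.14 there. With the GC trend removed, the largest clone difference of *Rif1* was 0.91 (adjusted p = 0.392, limma F test).

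*Zscan4* levels were then set beside those of their regulators across the 8 libraries. Clone 30 at passage 6 had the highest *Zscan4* sum, with *Rif1* at 9785. At passage 16 *Rif1* was at 6428 in this clone, and the sum was 1106, or 0.473 times its passage 6 value. Clone 20 at passage 6 had the highest *Rif1* level of all and the second highest *Zscan4* sum. Any effect of *Rif1*, *Dppa2* or *Dppa4* on *Zscan4* in these cultures was not tested. Pearson's r of log2 values with the log2 *Zscan4* sum was -0.32 for *Rif1*, 0.78 for *Dppa2* and 0.27 for *Dppa4*, over 8 libraries of 4 clones, which is a description since libraries share clones and depth. Without the passage 6 library of clone 30 these were -0.10, 0.79 and 0.50. For *Tcstv1* and *Tcstv3*, r was 0.55 and 0.71 and became 0.24 and 0.44 without that library. Over 12283 names the median r was 0.012.

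**Figure D4:**
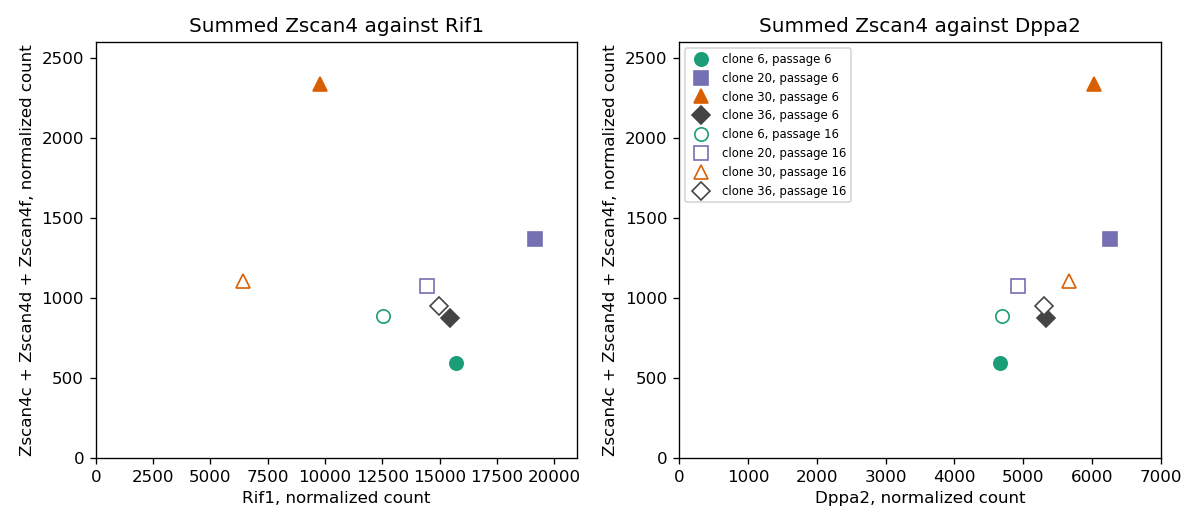
Summed normalized counts of *Zscan4c*, *Zscan4d* and *Zscan4f* (vertical axis) against *Rif1* (left) and *Dppa2* (right), 1 point per library, filled at passage 6 and open at passage 16. Both clone 30 libraries had the lowest *Rif1* levels, 9785 and 6428, and had *Zscan4* sums of 2338 and 1106.

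The names with the pattern most like the *Zscan4* sum were found by the same correlation over 8 libraries. The 10 closest were *Gm1995* (r = 0.993), *Axin2* (0.979), *Ctf2* (0.977), *Gm8300* (0.971), *Gm2022* (0.971), *Dnahc7b* (0.969), *Fam124a* (0.960), *Bambi-ps1* (0.954), *Zscan4a* (0.954) and *Gm8994* (0.951). Each of the 10 was highest in the passage 6 library of clone 30, as were 12.1% of names outside the displaced groups. The 10 were chosen for following the *Zscan4* sum, itself highest in that library, so their count gives no separate support. *Axin2*, a target and inhibitor of Wnt signalling, ranged from 191 to 381 normalized counts. Without the passage 6 library of clone 30 its r was 0.961, over libraries that also served to choose it. *Gm8300* and *Gm2022*, predicted genes listed as 2-cell transcripts, had 2.78 and 2.85 times as many normalized counts in clone 30 as in clone 6 at passage 6.

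The early library of clone 30 was also the highest for other 2-cell transcripts. Of 35 listed genes beside the 8, 21 were in the table, and 10 were tested outside the displaced groups. None of these passed between passages in limma or edgeR, and 1 had an unadjusted p under 0.05. All 10 had lower mean log2 values at passage 16, as did 50.4% of all names outside those groups, with a median log2 difference of -0.39 against -0.0011 for those names. The differences ran from -0.82 (standard error 0.332, adjusted p = 0.947, limma) for *Tdpoz4* to -0.19 (standard error 0.318, adjusted p = 0.955, limma) for *Gm8300*. All 10 were highest in clone 30 at passage 6, as were 12.1% of names, and 6 were lowest in clone 6 at passage 6, as were 12.6%. Without the passage 6 library of clone 30, 6 of the 10 were lower at passage 16 with a median of -0.14, and without both libraries of clone 30, 8 were lower with a median of -0.13. *Zscan4a*, *Zscan4b* and *Zscan4e* are among the 10 and share reads with the 3 genes above, and *Zscan4a* is annotated as a pseudogene. *AF067061*, also among the 10, shares 4.06% of the 50-base windows of *Tcstv1* and 5.75% of those of *Tcstv3*. *Zscan4a* had 194, 500.03, 671 and 301 normalized counts in the early libraries of clones 6, 20, 30 and 36, against 235, 326, 295 and 258 in the late ones. *Gm2022* began at 322, 700.04, 919 and 403 and later had 373, 527, 509 and 438, with clones 20 and 30 again the highest early on.

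**Figure D5:**
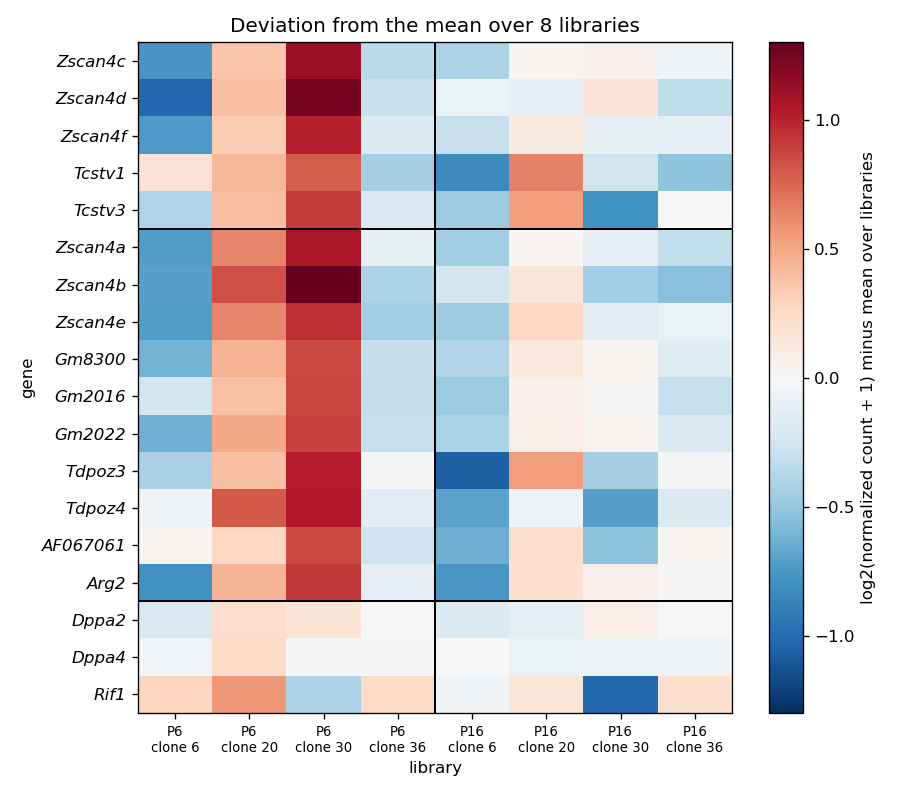
Deviation of each gene from its mean over 8 libraries on the log2(normalized count + 1) scale, red for higher and blue for lower, with the *Zscan4* and *Tcstv* genes at the top, 10 further 2-cell transcripts in the middle and the regulators at the bottom. All 15 upper genes were highest in clone 30 at passage 6, where *Rif1* was 0.41 below its mean.

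None of the other listed regulators passed either test. Of 3 listed activators in the table, *Dux*, which encodes a homeobox factor upstream of *Zscan4*, had 58.8, 39.6, 96.1 and 48.6 normalized counts early and 37.7, 65.0, 45.5 and 47.1 late. Clone 30 at passage 6 was again the highest, but for *Dux* the lowest was clone 6 at passage 16. Its log2 difference between passages was -0.26 (standard error 0.298, adjusted p = 0.947, limma). *Tbx3*, a pluripotency factor reported to activate *Zscan4*, was higher at passage 16 in 4 of 4 clones without passing the test. The share of all names higher in 4 of 4 was not counted, while 9.14% were lower in 4 of 4. Its log2 difference was 0.24 (standard error 0.0997, unadjusted p = 0.0440, adjusted p = 0.947, limma). Before adjustment, 3.5% of all names were under 0.05. *Dppa3* had a log2 difference of 0.20 (standard error 0.184, adjusted p = 0.947, limma). Of 27 listed repressors, chromatin and SUMO pathway genes in the main, 24 were tested outside the displaced groups, none passed between passages or clones in limma or edgeR (0 and 4 had an unadjusted p under 0.05, and with the clone as a block 2 had between passages, *Mga* and *Atrx*, both with an adjusted p = 0.726 in limma), 9 had higher and 15 lower means at passage 16, and the median log2 difference was -0.03. They ran from -0.29 for *Atrx* to 0.12 for *Chaf1b*. *Atrx*, a chromatin remodeller at telomeres and heterochromatin, was lowest in clone 30, like *Rif1*, at 5384 and 3946 normalized counts against 8242 to 12655 in the other clones. Both libraries of clone 30 were below the other 6 for 10.4% of names outside the displaced groups. The largest clone difference of *Atrx* was 1.36 (adjusted p = 0.0640, limma F test). With the GC trend removed, 0 of the 24 repressors passed among clones in limma.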

How the data were processed

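PolyA+ RNA of 4 ES cell clones at passage 6 and passage 16 was sequenced with 50-base single-end reads from strand-specific libraries. The authors aligned the reads to GRCm38/mm10 with TopHat 2.0.10, Bowtie 1.0.0 and SAMtools 0.1.19, counted them per gene with HTSeq 0.5.3p9 and used DESeq2. Whether counting used the strand is not given in the sources used here. What the authors deposited is a signal, the read count of each gene after division by the size factor of its library. Whole reads were recovered from them for 100% of values (tolerance 0.001).

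Groups came from the sample labels. The 8 genes and the gene lists were chosen with earlier results of these data known. From each list, genes past a threshold, up to 4 of the highest mean and the extremes of the passage difference could be named, and the 10 names most correlated with the *Zscan4* sum. Log2(normalized count + 1) of 14791 names with a mean of at least 10 was tested with limma 3.58.1 in R 4.3.3, all 8 libraries, trended variance, two-sided, Benjamini-Hochberg adjustment, threshold 0.05. The passage test had no clone term, and the clone F test had passage as covariate. The alternatives were pseudocounts of 0.5 and 10, other filters, TMM and quantile scaling, edgeR 4.0.16 and DESeq2 1.42.0 on recovered reads, the clone as a block, names outside the displaced groups, and fits without each library or clone. The correction for GC content and the list counts without single libraries were chosen after seeing the data. The limma tests were run on simulated counts with a fixed dispersion and no displaced rows. The simulation of passages held no clone differences, so error rates in these data were not tested. Sequences came from GENCODE vM21 transcripts and RefSeq promoters of GRCm38, aligned with MAFFT 7.526, in Python 3.11.15.

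The labels give each clone number at both passages, which pairs the libraries. Deviations from the passage means correlated between the 2 libraries of a clone over 9444 names with r = 0.158, 0.352, 0.817 and 0.597 for clones 6, 20, 30 and 36, but the passage 6 library of clone 6 correlated more with clone 36 (r = 0.437). Each clone has 1 library per passage, so p-values measure the spread among these libraries.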

Additional observations from a re-analysis of the deposited data

Results flagged for a closer look

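Of the 16 groups of 4 libraries formed by 8 genes and 2 passages, 1 held a library that stood apart from the other 3 by Dixon's test, where chance gives about 0.8. *Dppa4* in clone 20 at passage 6 was at 12.33 on the log2 scale (5145 normalized counts), while the other 3 clones lay between 12.05 and 12.07. The gap took 0.917 of the whole range, above the 95% critical value for 4 samples.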

How the results depend on the processing

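No call for any of the 8 genes between passages changed under any alternative run, and between clones the DESeq2 call of *Rif1* was the 1 change, with the largest clone difference at 1.06. Of 380 alternative values of the 8 genes, 372 kept direction and call and 7 reversed direction, all of them between passages and without the passage 6 library or both libraries of clone 30. Without 1 library or clone at a time, the passage difference ran from -0.47 to 0.16 for *Zscan4c*, from -0.53 to 0.22 for *Zscan4d*, from -0.49 to 0.10 for *Zscan4f* and from -0.60 to 0.090 for *Tcstv3*, on the log2 scale. Restricting the fit to names outside the displaced groups gave an adjusted p of 0.0506 for *Rif1* among clones (limma F test).

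Over all names, the passage test called 1 name. With the clone as a replicate block it called 0 in limma, 0 in limma with the GC correction, 2 in edgeR and 98 in DESeq2 (43 higher and 55 lower), and DESeq2 without the block called 44 (18 higher and 26 lower). Names outside the displaced groups gave 0. The limma block fit had 884 names under an unadjusted p of 0.05, the block fit with GC correction 867 and the fit outside the groups 436. Without single libraries or clones the count ran from 1 to 26, the latter without clone 30. The 1 name called in the main fit and all 26 called without clone 30 lay in the displaced groups. So did 39 of the 44 names that DESeq2 called and 42 of the 98 that it called with the block. The clone test called 20 names, with DESeq2 1123, outside the displaced groups 62, and from 0 (without clone 20, where 1846 names were under an unadjusted p of 0.05) to 164 (without the passage 16 library of clone 6) otherwise. The cause was not tested. The block changed no call of the 8 genes. Low read numbers limit *Tcstv1*, and shared sequence limits the single *Zscan4* genes.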

Other observations

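Of the names listed as markers of other cell states, the primed epiblast factor *Otx2*, chosen after its values were seen, ran opposite to the *Zscan4* sum. It had 1665 normalized counts in clone 6, 545 in clone 20, 603 in clone 30 and 1099 in clone 36 at passage 6, and between 791 and 1018 at passage 16. Pearson's r of log2 values with the *Zscan4* sum was -0.89 over 8 libraries that share clones, given as a description. The other primed epiblast markers did not share one direction, with r = -0.56 for *Fgf5* and 0.52 for *Pou3f1*, which was highest in clone 30 at passage 6, so the list as a whole did not run opposite to *Zscan4*. *Otx2*, like the *Zscan4* genes, spread more widely among clones early than late.

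The primitive endoderm markers *Gata4* and *Sox7*, picked from a list of 5, were lowest in clone 30 at each passage. *Gata6*, *Pdgfra* and *Dab2* are not given by library here. Both libraries of clone 30 were below the other 6, a stricter pattern, for 10.4% of names outside the displaced groups. *Gata4* had 389 normalized counts in clone 30 at passage 6 and 252 at passage 16, and *Sox7* had 111 and 60.0. The trophoblast factor *Cdx2* had 10.7 normalized counts, a low count, in clone 6 at passage 6 and between 20.2 and 46.4 in the other 7 libraries. Of names outside the displaced groups, 12.6% were lowest in that library. The trophoblast markers did not share one direction. Pearson's r with the *Zscan4* sum was 0.78 for *Cdx2*, 0.68 for *Gata3* and -0.66 for *Eomes*, and their sum in that library, 367, was not the lowest.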
